A study of Mus musculus with 30 samples.

Results

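The skeletal myosin heavy chains were followed through the healing callus as 6 genes of the 43629 in the count table, chosen by gene name. Myh3 and Myh8 encode the embryonic and perinatal (developmental) isoforms, and Myh4, Myh1, Myh2 and Myh7 encode the adult isoforms of fast IIb, fast IIx, fast IIa and slow fibres. All 6 were found by their Ensembl identifiers, and all 6 passed the filter on low counts in every fit used below. The samples were fracture calli of male C57BL/6J mice, either lean on a low-fat control diet or with diet-induced obesity (DIO) on a high-fat diet. Every mouse received an open osteotomy of the right tibia at 20 weeks of age, stabilised with an intramedullary nail, and the labels name no altered allele. Lean calli were taken on d3, d5, d7 and d10 after fracture (12 libraries), and DIO calli on those 4 days and on d14 and d21 (18 libraries), with 3 mice per group. No lean callus later than d10 was analysed here. No unfractured muscle or bone is among the samples, and soft tissue around the callus was cut away before harvest. How much muscle stayed on each callus is not recorded.

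Myosin heavy chain is the motor of the thick filament, and each muscle fibre is typed by the isoform it holds. Developing and regenerating fibres make the embryonic chain, then the perinatal chain, and replace both with adult fast or slow chains as they mature, so Myh3 and Myh8 are widely used as markers of newly formed fibres. Callus is mainly blood clot, cartilage, woven bone and marrow, and it holds muscle only where fibres adhere to it or grow at its edge. In bulk RNA, fewer cells of a type and less RNA per cell cannot be told apart.

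By GENCODE M21 on GRCm38, 5 of the 6 genes stand in a row on the plus strand of chromosome 11, in the order Myh3 (chr11:67078300-67102291), Myh2 (chr11:67171027-67197517), Myh1 (chr11:67200052-67224575), Myh4 (chr11:67238029-67260446) and Myh8 (chr11:67277124-67308634). The extraocular myosin gene Myh13 (chr11:67321658-67371586) closes the row. Myh7 lies on the minus strand of chromosome 14 (chr14:54970684-54994626), next to the cardiac gene Myh6. The neighbours in the row are so alike that 25.2% of the 53-base windows of the longest Myh2 transcript, 24.6% of those of Myh1, 18.6% of Myh8 and 17.3% of Myh4 occur letter for letter in another member. For Myh3 this share was 3.01%, and for Myh7 0.162%, but 21% of the Myh7 windows occur in Myh6. The reads were sequenced in pairs, and these windows leave out the mate of a read. How reads of shared stretches were counted is not given in the sources used here. Levels of Myh2, Myh1, Myh8 and Myh4 in particular carry that uncertainty.

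The upstream sequences are shown because Myh8 shares its longest runs with adult members, whereas by level it runs with Myh3. The windows are from RefSeq (GRCm38.p6, plus strand, chromosome 11) and lie within 250 bases upstream of the RefSeq start. Capitals mark letters in a run of at least 12 bases found in another of these 4 windows.
Myh8 at chr11:67277008-67277093: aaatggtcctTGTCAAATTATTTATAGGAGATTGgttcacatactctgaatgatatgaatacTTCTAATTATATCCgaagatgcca
Myh1 at chr11:67199876-67199967: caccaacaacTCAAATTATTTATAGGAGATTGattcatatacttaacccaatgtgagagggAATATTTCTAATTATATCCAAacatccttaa
Myh4 at chr11:67237613-67237678: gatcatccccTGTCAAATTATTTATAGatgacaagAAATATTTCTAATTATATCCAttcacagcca
Myh2 at chr11:67170886-67170927: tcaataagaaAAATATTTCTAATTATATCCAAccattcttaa
The run TTCTAATTATATCC stands upstream of Myh8, Myh1, Myh4 and Myh2 and of no other gene among the 32851 RefSeq promoter windows of 300 bases (0.0122%, both strands searched). The run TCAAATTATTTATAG is held by Myh8, Myh1 and Myh4 alone (0.00913%). The longest run, TCAAATTATTTATAGGAGATTG, joins the perinatal Myh8 to the adult Myh1.
Myh3 shares no run of that length with the other members of the row. Its last 80 bases before the start carry TATAAA, in capitals, at 29 bases upstream.
Myh3 at chr11:67078220-67078299: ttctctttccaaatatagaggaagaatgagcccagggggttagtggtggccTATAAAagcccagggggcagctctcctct
TATAAA on either strand is present in 13.6% of all promoter windows. Myh1 and Myh4 also hold it close to the start, at 32 and 31 bases upstream. A match to the consensus of MEF2, a factor of muscle genes, was found on either strand upstream of Myh8, Myh1 and Myh4, each time inside the shared run and overlapping a TATAAA of the opposite strand, and 3.19% of all windows hold one. A match is a description of letters and not a tested site.

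Total counts ran from 13247122 to 26365620 per library (median 16854427), and levels are given as CPM, counts scaled to library size with TMM factors over the 30 libraries. Every library held skeletal muscle RNA, since all 15 adult muscle markers on a list of genes such as Acta1, Ckm and Tcap were detected in all 30. Their summed level ran from 307 to 17499.6 CPM and was lowest in DIO d21 mouse 1 (307 CPM) and lean d10 mouse 1 (876 CPM). Lean d10 mouse 1 also held the most cartilage RNA, with 62739 CPM over 7 chondrocyte markers. Of the cardiac markers, Myl7 had no read in 29 libraries, Nppa none in 25, Ryr2 none in 8 and Myh6 none in 2. Tnni3 was detected in every library, at 2.15 to 7.35 CPM. The 5 cardiac markers summed to 3.4 to 8.45 CPM. The labels name no batch.

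Myh3, the embryonic chain, was highest on d5 in both diets. In lean calli it stood at 46.5, 10.1 and 6.0 CPM on d3 and 603, 340.5 and 50.2 CPM on d5. The d5 values were all above the d3 values, though the lowest of d5 came close to the highest of d3. Ranges did not overlap between these days for 22.9% of 17357 genes. It then ran at 58.1, 25.8 and 33.7 CPM on d7 and 9.46, 9.12 and 6.0 CPM on d10. Mean levels were 20.9 ± 22.3 CPM (SD, n = 3) for d3 and 331 ± 276 CPM for d5, a 15.9-fold difference, and 8.19 ± 1.9 CPM for d10, when all 3 mice lay below all 3 of d7 (no overlap for 27.7% of genes).

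In DIO calli Myh3 was also highest on d5 and was near 0 by d21. Levels were 31, 22.9 and 15.5 CPM on d3, 97.7, 589 and 414 CPM on d5 and 28.5, 123 and 79.3 CPM on d7. The ranges of d3 and d5 did not overlap, as for 26.6% of genes, and the mean was 15.9-fold higher on d5. On d10 the levels were 2.22, 8.79 and 4.13 CPM, all under those of d7 (no overlap for 26.8% of genes), and the mean had dropped 15.2-fold. On d14 they were 0.66, 9.55 and 0.581 CPM, with mouse 2 standing far above the others. On d21 the 3 libraries held 0, 9 and 5 reads of Myh3, or 0, 0.528 and 0.259 CPM. All 3 lay under the d14 range (no overlap for 34.3% of genes). The library without a read allows up to 0.173 CPM (3 reads in that library, counting error only).

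Myh8, the perinatal chain, also peaked on d5 in both diets. Lean levels were 6.7, 2.08 and 0.60 CPM on d3, 317, 213 and 22.5 CPM on d5, 90.6, 36.6 and 45.3 CPM on d7 and 35.2, 23.5 and 16.3 CPM on d10. All d5 mice were above all d3 mice (no overlap for 22.9% of genes), and the mean was 58.9-fold higher. On d10 the lowest lean mouse held more Myh8 than the highest of d3. The share of all genes without overlap between lean d3 and d10 was not computed. DIO levels were 3.42, 3.2 and 3.99 CPM on d3, 44.2, 439 and 262 CPM on d5 and 35.8, 116 and 97.6 CPM on d7. The d3 mice were tightly grouped, and the d5 mean was 70.2-fold higher. Levels then dropped to 4.29, 8.36 and 6.02 CPM on d10, all below d7 (no overlap for 26.8% of genes). They stood at 0.77, 11.4 and 0.475 CPM on d14. On d21 there were 0, 13 and 0 reads, and the floor of 3 reads in the mice without any is 0.173 and 0.155 CPM.

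**Figure D1:**
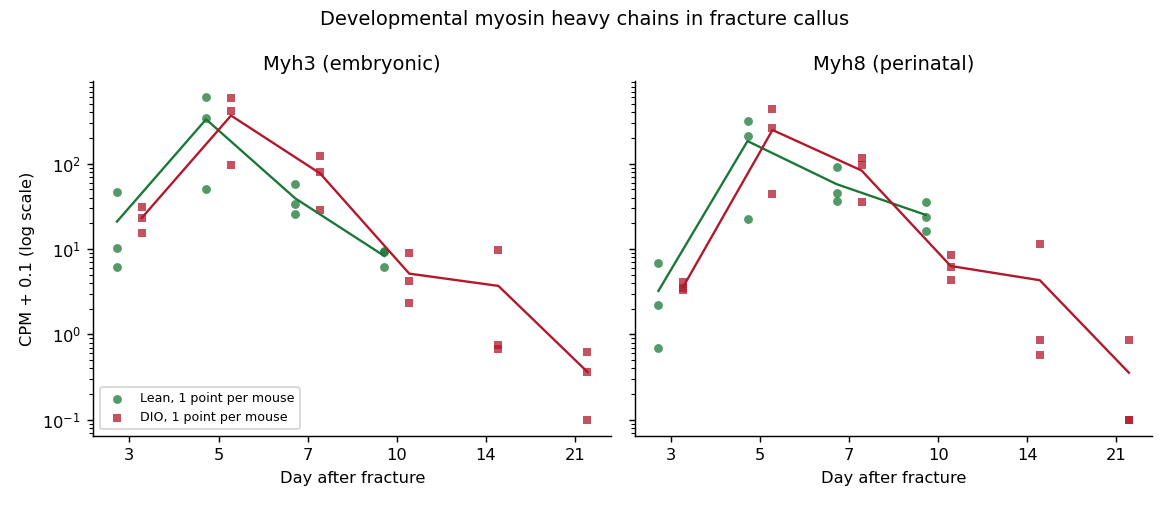
CPM of Myh3 (left) and Myh8 (right), plus 0.1 on a log scale, by day after fracture (days evenly spaced), with 1 point per mouse (green circles lean, red squares DIO) and lines through the group means. Both genes peak on d5 in both diets, Myh8 lies higher in lean than in DIO calli on d10, and DIO libraries of d21 sit at or near 0.

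The day-to-day changes were tested with edgeR's quasi-likelihood test, within lean and within DIO calli, with Benjamini-Hochberg adjustment over all genes and a threshold of 0.05. Over any lean day, Myh3 (edgeR adjusted p = 0.0051) and Myh8 (edgeR adjusted p = 0.00782) differed and the 4 adult genes did not pass, beside 19% of all genes called. Over any DIO day 5 of the 6 passed, all but Myh4, beside 59.1% of all genes. The edgeR adjusted p there was 3.30e-06 for Myh8 and 1.70e-06 for Myh3. Myh3 and Myh8 passed both of these tests with each library of the fit left out in turn.

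From lean d3 to d5, Myh8 rose by 5.96 ± 1.00 (SE) on the log2 scale (edgeR adjusted p = 0.0265). Myh3 differed by 4.03 ± 0.89 (SE) without passing (edgeR adjusted p = 0.0703). In this step 0.449% of all genes were called, 74 of 16471. The Myh8 call was lost without d3 mouse 1, d3 mouse 2, d5 mouse 1, d5 mouse 2 or d7 mouse 1, with folds between 5.27 and 7.08 over all libraries left out. Myh3 passed without lean d5 mouse 3 (edgeR adjusted p = 0.0297), and it also passed with DESeq2 (adjusted p = 0.00143). From DIO d3 to d5 both passed, Myh8 with 6.14 ± 1.00 (SE) (edgeR adjusted p = 0.00358) and Myh3 with 3.99 ± 0.84 (SE) (edgeR adjusted p = 0.0183), beside 1.68% of all genes. Myh8 held with each DIO library left out, and Myh3 was lost without any of the d3 mice or d5 mouse 2 (edgeR adjusted p up to 0.0976).

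On the way down, 0 of 6 members passed edgeR from lean d5 to d7, where 0% of all genes did. Myh3 differed there by -3.09 ± 0.85 (SE) and Myh8 by -1.68 ± 0.81 (SE) on the log2 scale, 1 member was under an unadjusted p of 0.05 and DESeq2 called 0. From lean d7 to d10 (2.73% of all genes) again 0 members passed edgeR, 1 was under an unadjusted p of 0.05 and DESeq2 called 0. The differences were -2.25 ± 0.85 (SE) for Myh3 and -1.19 ± 0.81 (SE) for Myh8. From DIO d5 to d7 (0.0177% of all genes) 0 passed, with Myh3 at -2.26 ± 0.77 (SE) and Myh8 at -1.58 ± 0.80 (SE), 1 member under an unadjusted p of 0.05 and 0 called by DESeq2.

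The fall passed the test between DIO d7 and d10, where 13% of all genes were called. Myh3 fell with a log2 difference of -3.92 ± 0.87 (SE) (edgeR adjusted p = 0.00572) and Myh8 with -3.73 ± 0.91 (SE) (edgeR adjusted p = 0.0102). Myh3 held with each DIO library left out, and Myh8 reached 0.0502 (edgeR adjusted p) without d10 mouse 1. From DIO d10 to d14, where 0.759% of all genes were called, neither developmental gene passed. From DIO d14 to d21 (19.6% of all genes) Myh3 fell by 3.73 ± 1.28 (SE) in log2 units (edgeR adjusted p = 0.0489). Over the same days Myh8 fell by 4.05 ± 1.35 (SE) (edgeR adjusted p = 0.0445). Without d14 mouse 2, the high library of d14, the differences were -1.23 and -1.33 (edgeR adjusted p = 0.57 and 0.562). Both calls were also lost without d21 mouse 1 or d21 mouse 3, and Myh3 without d21 mouse 2. Of the 18 libraries left out in turn, the call held for 6 with Myh3 and for 8 with Myh8, and without a library of d3, d5, d7 or d10 it held or reached at most 0.0586 (edgeR adjusted p). In the fit of all 30 libraries neither passed (edgeR adjusted p = 0.0613 and 0.0501).

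**Figure D2:**
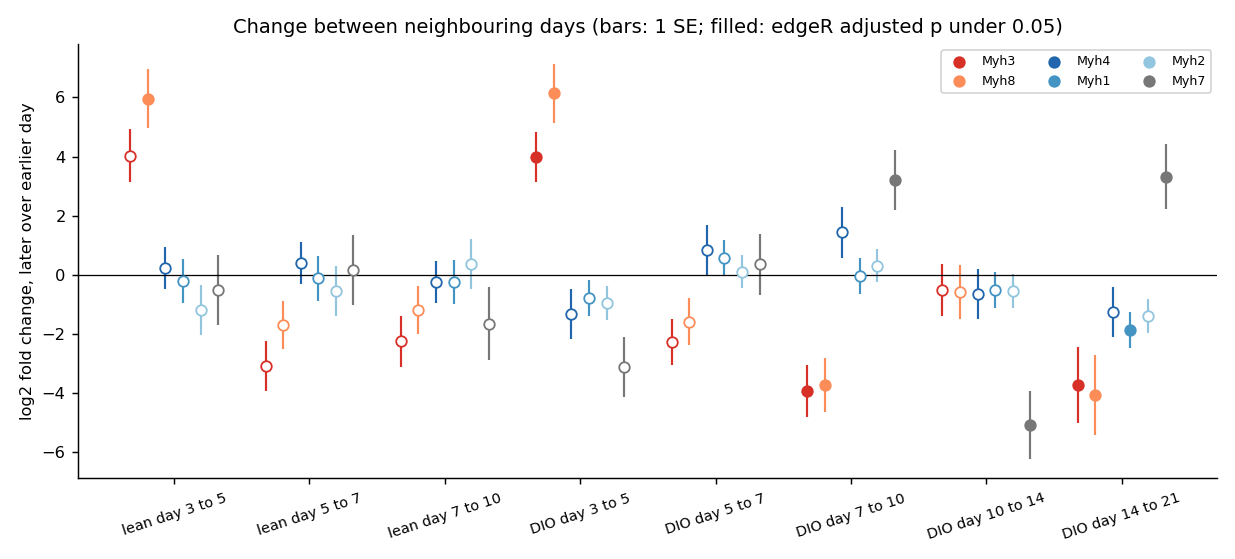
Log2 fold change of the 6 genes between neighbouring days (later over earlier), by edgeR's quasi-likelihood fit, with bars of 1 SE and filled symbols where the adjusted p is under 0.05. Myh3 and Myh8 stand at 3.99 to 6.14 from d3 to d5 in both diets while the fast adult genes lie between -1.32 and 0.22.

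The ratio of perinatal to embryonic chain was higher on each later day up to d10 in lean and up to d7 in DIO calli. Per kb of the longest transcript, the Myh8 to Myh3 ratio was 0.141, 0.202 and 0.0981 in the lean mice of d3, 0.516, 0.613 and 0.439 on d5, 1.53, 1.39 and 1.32 on d7 and 3.65, 2.53 and 2.67 on d10. No 2 of these 4 days overlapped. In DIO calli it was 0.108, 0.137 and 0.253 on d3, 0.443, 0.731 and 0.621 on d5 and 1.23, 0.928 and 1.21 on d7, again without overlap. Later days overlapped, with 1.89, 0.933 and 1.43 on d10 and 1.14, 1.17 and 0.802 on d14, and on d21 only mouse 2 had at least 3 reads of both genes (1.42). On d10 the lean mice (2.53 to 3.65) lay above the DIO mice (0.933 to 1.89). The ratio was looked at after the levels were seen and has no test. Of the Myh8 windows 18.6% occur in another member, against 3.01% of those of Myh3, so the ratio also carries the uncertainty of shared reads. On merged exon length, which for Myh8 takes in retained introns, every ratio is lower by the same factor, so its size against 1 depends on the length chosen while its order between days does not.

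The developmental share, Myh3 plus Myh8 as a percentage of all 6 genes in CPM per kb of merged exon, was highest on d5 by its group mean in both diets. It was 2.3, 0.687 and 0.244% in lean mice on d3 and 19.6, 17.2 and 6.65% on d5. In DIO mice it was 0.80, 1.0 and 0.657% on d3 and 11.6, 30.8 and 27.7% on d5. Neither pair of days overlapped. The share ran at 2.91, 1.83 and 4.03% in lean and 1.32, 14.8 and 5.42% in DIO mice on d7. On d10 it was 10.7, 0.625 and 0.566% in lean mice, with the high value from mouse 1, the library poor in muscle markers, and 0.0932, 0.251 and 0.177% in DIO mice. From d10 on, no DIO library exceeded 0.294%. Merged exon length, which for Myh8 takes in retained introns, gives Myh8 less weight than the longest transcript does. Per kb of the longest transcript, the d5 shares were 22.2, 20.0 and 7.59% in lean and 12.9, 35.3 and 31.5% in DIO mice. On that scale lean d10 mouse 1 stood at 15.9%.

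**Figure D3:**
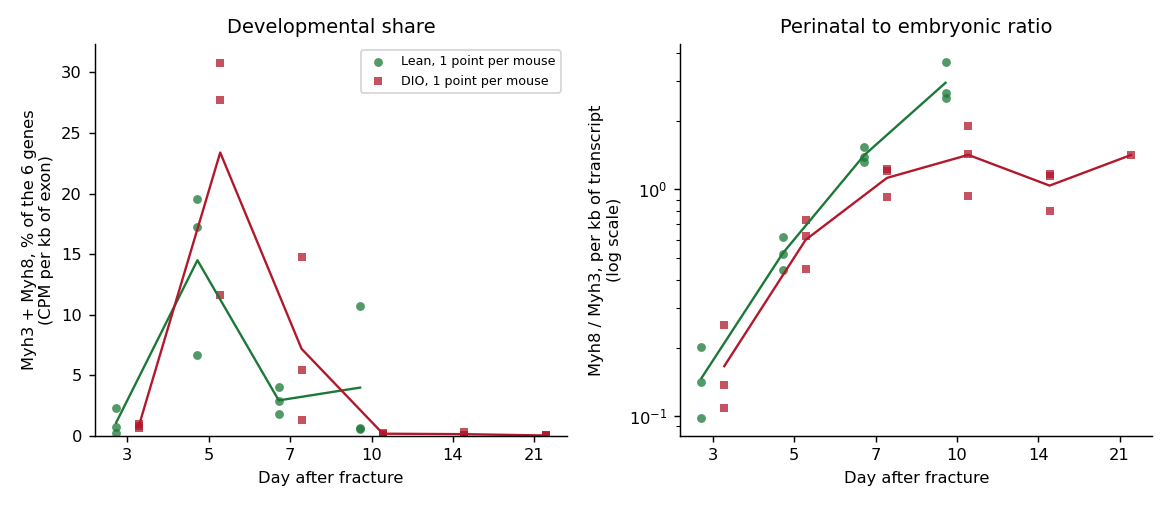
Left, Myh3 plus Myh8 as a percentage of the 6 genes (CPM per kb of merged exon) by day, evenly spaced. Right, the Myh8 to Myh3 ratio per kb of the longest transcript on a log scale, for libraries with at least 3 reads of each. Points are mice (green circles lean, red squares DIO) and lines join group means. The share peaks on d5, up to 30.8% in a DIO mouse, and the ratio is higher on each later day to d10 in lean mice and to d7 in DIO mice.

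None of the adult fast chains had its highest mean on d5 in either diet, and Myh4 and Myh1 were the most abundant of the 6 genes. By their medians over all 30 libraries, in CPM per kb of merged exon, Myh4 came first at 256, then Myh1 at 97.2 and Myh2 at 13.4, with Myh7 at 0.598. Myh4 made up 34.4% to 86.7% of the 6 genes in any library. In 2 libraries Myh1 exceeded Myh4, DIO d5 mouse 1 (46% against 34.4% of the 6 genes) and DIO d7 mouse 2 (43.6% against 35.9%).

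Myh4 stood at 1200.4, 1019.8 and 1328 CPM in lean mice on d3, 2017, 1424 and 590.0 CPM on d5, 2649.6, 1573 and 1081 CPM on d7 and 163, 2403 and 1880.2 CPM on d10. The 4 lean days overlapped, and the low d10 value is mouse 1 again. In DIO mice it was 2575, 1704 and 1592 CPM on d3, 354, 1173 and 816 CPM on d5 and 2222, 439.5 and 1513 CPM on d7. Every d5 mouse lay below every d3 mouse, while in the same libraries Myh3 and Myh8 lay above (no overlap for 26.6% of genes). It was 3712, 4171 and 3398 CPM on d10, above all d7 mice (no overlap for 26.8% of genes). Levels were then 2019.7, 4341 and 857 CPM on d14 and 64.5, 2537 and 423 CPM on d21. None of these steps passed edgeR, and without d21 mouse 2 Myh4 passed from d14 to d21 (log2 difference -3.30, edgeR adjusted p = 0.00943).

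Myh1 ran from 539 to 985 CPM on lean d3 to 60.1 to 871 CPM on lean d10, where the lowest value was that of mouse 1, and every lean day overlapped the next. In DIO mice it was 1253, 642 and 915 CPM on d3 and 500.4, 574 and 557 CPM on d5. All 3 mice of d5 lay under the d3 range (no overlap for 26.6% of genes). On d14 the levels were 554, 779.7 and 319 CPM and on d21 21.6, 344 and 88.3 CPM, with d21 mouse 2 inside the d14 range. Myh1 fell by 1.87 ± 0.62 (SE) on the log2 scale over that step (edgeR adjusted p = 0.0439). The estimates of all 15 adult muscle markers (median -1.48, 1 called) and all 10 fast partners (median -1.54, 0 called) were also lower on d21. In this step 19.6% of all genes were called. The part of these markers and partners in the Myh1 result was not tested. The call held for 6 of the 18 libraries left out in turn. It was lost without any of the d14 mice, d21 mouse 1, d21 mouse 3, any of the d10 or d5 mice or d3 mouse 3 (edgeR adjusted p up to 0.132).

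Myh2 had its highest mean on d3 in both diets, with 198, 87.6 and 315 CPM in lean and 308, 112 and 167 CPM in DIO mice. Later lean days ran from 8.58 CPM (d10 mouse 1) to 140.3 CPM, and DIO days from d5 to d14 from 66 to 185 CPM. On d21 it was 4.6, 63.2 and 38.2 CPM, below every mouse of d14 (no overlap for 34.3% of genes). No step of Myh2 passed edgeR, and without d21 mouse 2 it passed from d14 to d21 (log2 difference -2.11, edgeR adjusted p = 0.0218). Over any DIO day it passed (edgeR adjusted p = 0.0362) and was lost without d3 mouse 1 or d21 mouse 3, while Myh1 (edgeR adjusted p = 0.0295) was lost without d21 mouse 3.

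**Figure D4:**
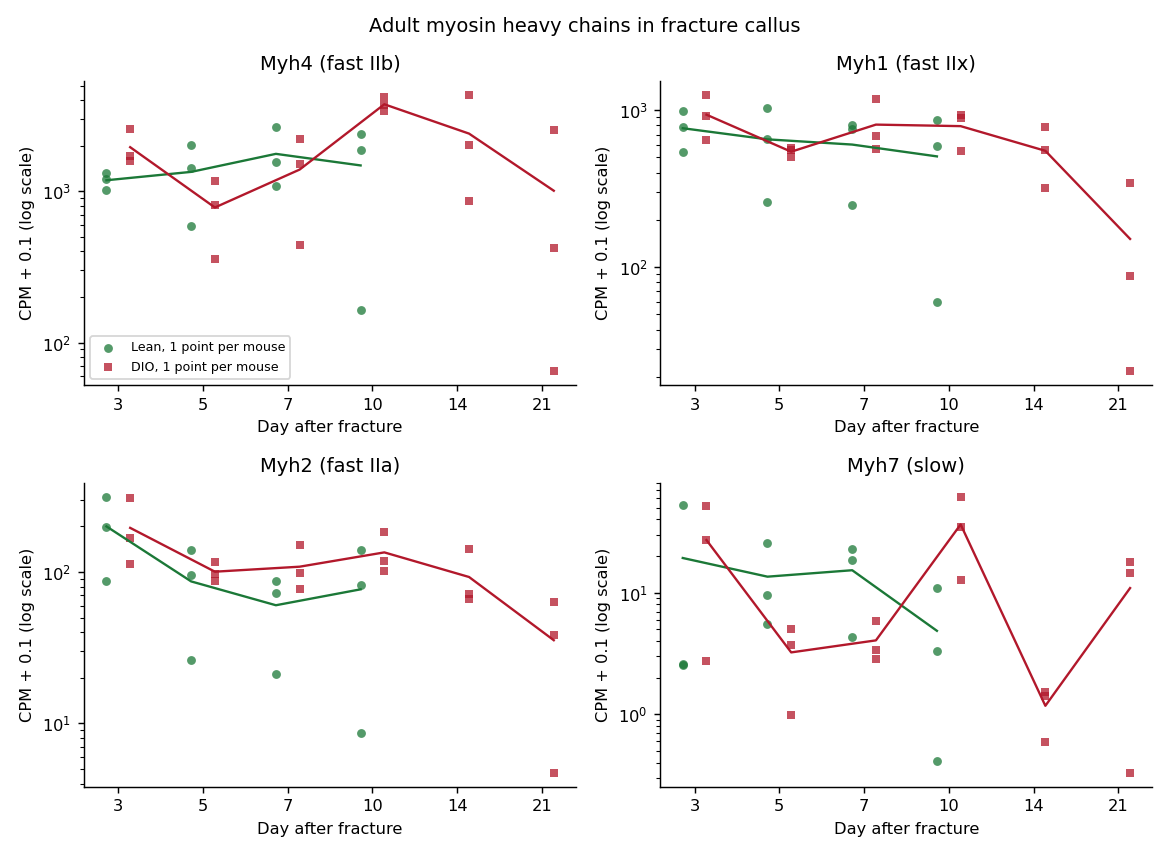
CPM of the 4 adult genes plus 0.1 on a log scale, by day after fracture (days evenly spaced), 1 point per mouse (green circles lean, red squares DIO) with lines through group means. Myh4, Myh1 and Myh2 show no peak on d5, lean d10 mouse 1 and DIO d21 mouse 1 are the lowest points of their diets, and Myh7 spreads widely between mice of the same day.

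Myh7, the chain of slow fibres, was low and uneven. Lean mice held 2.43, 2.51 and 52.6 CPM on d3, 9.41, 25.5 and 5.4 CPM on d5, 4.22, 18.4 and 22.9 CPM on d7 and 0.313, 10.7 and 3.24 CPM on d10. Each lean day overlapped its neighbour, and a single mouse stood high on d3. DIO mice held 27.2, 2.62 and 51 CPM on d3, 0.892, 4.9 and 3.6 CPM on d5 and 2.77, 5.81 and 3.29 CPM on d7. On d10 all 3 mice lay above those of d7, at 12.7, 34.5 and 61.5 CPM (no overlap for 26.8% of genes). On d14 all 3 lay below those of d10, at 0.495, 1.42 and 1.32 CPM (no overlap for 22.3% of genes). On d21 the mice held 0.23, 14.5 and 17.7 CPM. Myh7 rose from d7 to d10 by 3.20 ± 1.02 (SE) (edgeR adjusted p = 0.0468), and from d10 to d14 it fell by 5.07 ± 1.15 (SE) (edgeR adjusted p = 0.049), both in log2 units. From d14 to d21 it rose by 3.32 ± 1.11 (SE) (edgeR adjusted p = 0.0436). With the 18 libraries left out in turn these calls held for 8, 6 and 9. The d7 to d10 call was lost without any d7 mouse or d10 mouse 2 or 3, that of d10 to d14 without any d14 mouse or d10 mouse 2 or 3, and that of d14 to d21 without any d14 mouse or d21 mouse 2 or 3, among others (edgeR adjusted p up to 0.147, 0.223 and 0.14). In a fit of all 30 libraries none of the 3 passed (edgeR adjusted p = 0.0917, 0.116 and 0.0801).

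The adult fast genes tracked the summed adult muscle markers of each library more closely than the developmental genes did. That was favoured in advance, since these markers are themselves genes of adult fibres. Across the 30 libraries, Pearson's r of log2 CPM with the log2 sum of the 15 adult muscle markers was 0.96 for Myh1, 0.91 for Myh4 and 0.90 for Myh2. It was 0.53 for Myh7, 0.46 for Myh3 and 0.37 for Myh8. The points share library, depth and group, and these values carry no test. Set per 1000 CPM of the muscle markers, Myh3 was 4.54, 1.55 and 0.543 on lean d3 and 39.1, 29.6 and 13.3 on lean d5. In DIO mice it was 1.96, 2.54 and 1.14 on d3 and 18.1, 57.5 and 50.8 on d5. For Myh8 the highest d3 value was 0.654 in lean and 0.354 in DIO mice, and the lowest d5 value was 5.94 and 8.19. The d3 and d5 ranges stayed apart for both genes and both diets. The share of all genes without overlap on this scale was not computed.

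On the same scale Myh1 ran from 38 to 99.5 in all 30 libraries. Myh4 per 1000 in DIO mice on d5 was 65.7, 115 and 100.2, and ran from 209.9 to 280.3 in DIO mice from d10 on. Lean d10 mouse 1, with the lowest marker sum of the lean libraries, held 40.2 of Myh8 per 1000 against 2.3 and 2.37 in the other lean mice of d10. The part of muscle content in the single-gene tests above was not tested.

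**Figure D5:**
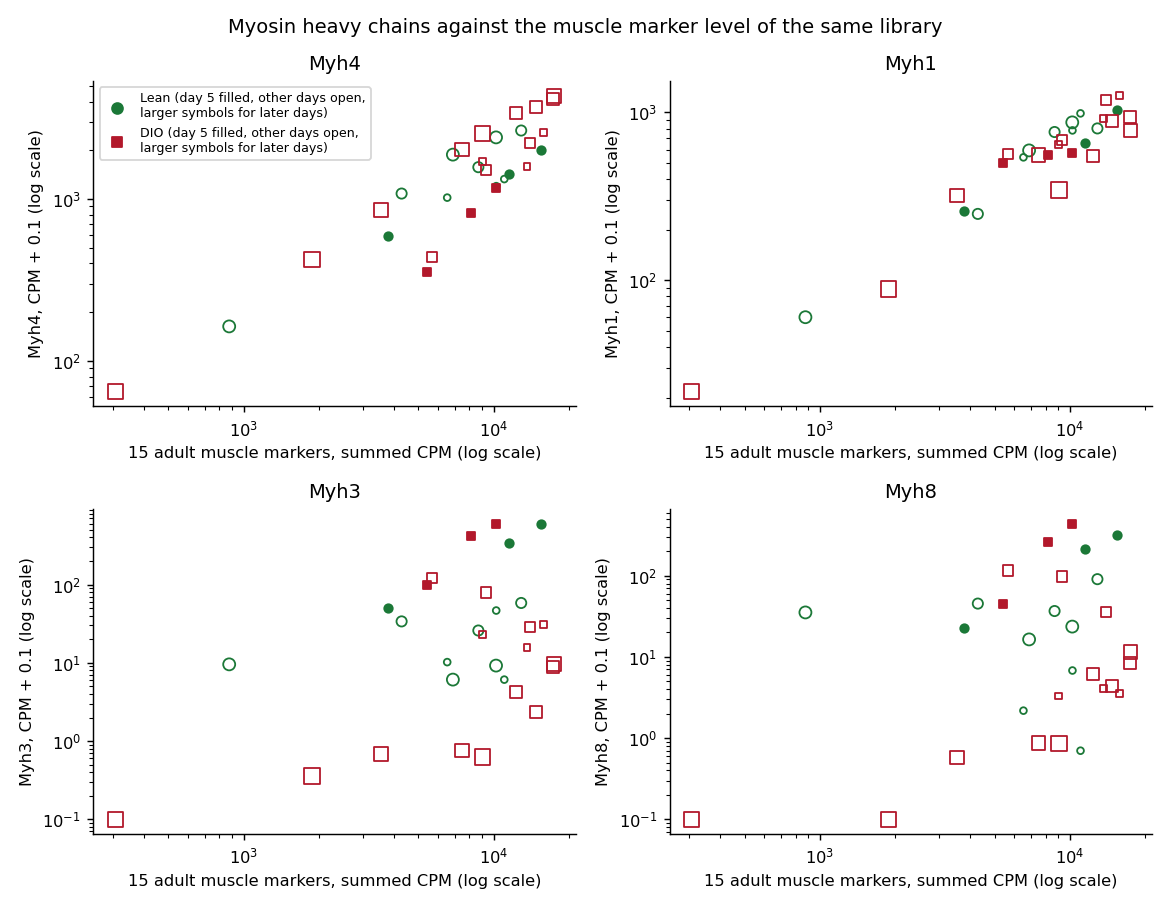
CPM of Myh4, Myh1, Myh3 and Myh8 plus 0.1 against the summed CPM of 15 adult muscle markers in the same library, both on log scales, for 30 libraries (circles lean, squares DIO; filled on d5, larger on later days). Myh4 and Myh1 are higher where the markers are higher, while the 4 highest points of Myh3 and of Myh8 are all d5 libraries and libraries with as many markers run down to under 10 CPM.

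The diets were compared within each day in fits of 6 libraries, and 0 of 6 members passed edgeR on any day. On d3 0% of all genes were called (0 of 15772, with 2374 under an unadjusted p of 0.05 and 743 by DESeq2). Among the members, Myh4 was higher in every DIO mouse than in any lean mouse (no overlap for 20.3% of genes), with a log2 difference of 0.74 ± 0.22 (SE) (edgeR adjusted p = 0.188), and DESeq2 called it (adjusted p = 0.018). On d5 (1.08% of all genes) the mean of Myh3 was 331 ± 276 CPM in lean and 367 ± 249 CPM in DIO mice, with ranges that overlapped. The log2 difference was 0.15 ± 0.84 (SE) for Myh3 and 0.44 ± 0.95 (SE) for Myh8, and both changed sign without lean d5 mouse 3 or DIO d5 mouse 2. Myh7 was the only member under an unadjusted p of 0.05 on d5, at -2.11 ± 0.71 (SE) (edgeR adjusted p = 0.168), with all DIO mice below all lean mice (no overlap for 22.5% of genes), and DESeq2 called 0 members.

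On d7 (2.32% of all genes) Myh7 was the only member under an unadjusted p of 0.05, at -1.93 ± 0.55 (SE) (edgeR adjusted p = 0.111), and it passed with DESeq2 (adjusted p = 0.00217) and without lean d7 mouse 1 (edgeR adjusted p = 0.0358). On d10 (0% of all genes, 0 of 15341, with 1082 under an unadjusted p of 0.05 and 56 by DESeq2) Myh8 stood at 16.3 to 35.2 CPM in lean and 4.29 to 8.36 CPM in DIO mice. These ranges did not overlap, as for 13.9% of 17357 genes on that day. The log2 difference was -1.99 ± 0.35 (SE) (edgeR adjusted p = 0.686). It passed with DESeq2 (adjusted p = 0.000115) and with edgeR without the filter on low counts (adjusted p = 0.0402). Myh7 was the other member under an unadjusted p of 0.05 on d10, at 2.95 ± 0.93 (SE), with no overlap. Myh3 on d10 differed by -0.68 ± 0.47 (SE), with ranges that overlapped, and Myh4 by 1.35 ± 0.73 (SE), without overlap and with a DIO mean 2.54-fold that of lean mice.

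Estimates for muscle and cartilage markers on d10 stood as follows. All 15 adult muscle markers (median log2 difference 1.33) and all 10 fast partners (median 1.41) had a higher estimate in DIO mice, all 7 chondrocyte markers (median -2.75) a lower one, and edgeR called none of them. Without lean d10 mouse 1 the log2 difference was -1.68 for Myh8, 2.38 for Myh7 and 0.81 for Myh4. With any 1 of the 6 libraries left out, Myh3 ran between -1.35 and -0.33 and Myh7 between 2.32 and 4.35. The part of muscle and cartilage content in these diet differences was not tested.

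Whether the diet difference changed between d3 and d10 was tested in 1 fit of 24 libraries, where 1.65% of all genes were called. None of the 6 members passed edgeR, 1 (Myh7) was under an unadjusted p of 0.05, and DESeq2 called 0. The smallest edgeR adjusted p was 0.186, for Myh7, which passed without lean d3 mouse 3 (0.0493, edgeR adjusted p). For Myh3 and Myh8 it was 0.775 and 0.386.

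Ranked by mean over the 10 groups, Myh3 was highest in DIO d5 and lean d5, then DIO d7, lean d7, DIO d3, lean d3, lean d10, DIO d10, DIO d14 and DIO d21. Each neighbour in this order overlapped the next except DIO d14 and d21 (no overlap for 34.3% of genes). Myh8 ran DIO d5, lean d5, DIO d7, lean d7, lean d10, DIO d10, DIO d14, DIO d3, lean d3 and DIO d21. Lean d10 had a gap to lean d7 (no overlap for 27.7% of genes) and to DIO d10 (13.9%), with overlap elsewhere. For Myh4, Myh1, Myh2 and Myh7 every neighbour in the order overlapped. Their highest means were 3760.2 ± 388 CPM (Myh4, DIO d10), 937 ± 306 CPM (Myh1, DIO d3), 200.2 ± 114 CPM (Myh2, lean d3) and 36.3 ± 24.4 CPM (Myh7, DIO d10).

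A list of 7 partners of the developmental sarcomere and fetal nerve-muscle junction had 7 of 7 called over any lean day and 7 of 7 over any DIO day by edgeR, beside 19% and 59.1% of all genes. From DIO d3 to d5, 3 of 7 rose and 0 fell, beside 1.68% of all genes called (median log2 difference 2.41, against 0.0049 over all genes). They were Myl4, the embryonic essential light chain (2.82 ± 0.52 (SE), edgeR adjusted p = 0.00819), Tnnt2, the troponin T of heart and embryonic muscle (2.41 ± 0.50 (SE)), and Myl6b (2.14 ± 0.53 (SE)). From lean d3 to d5 the median was 2.32 with 0 of 7 called, beside 0.449% of all genes. From DIO d7 to d10, 5 of 7 fell, beside 13% of all genes called. Among them were the acetylcholine receptor subunits Chrna1 (-3.06 ± 0.67 (SE)), Chrnd (-2.59 ± 0.67 (SE)) and the fetal subunit Chrng (-3.41 ± 0.93 (SE)). The median level of Tnnt2 was 11.4 CPM on lean d3, 106 on d5 and 12.5 on d10.

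Of 11 myogenic and fusion factors, 7 were called over any lean day and 11 over any DIO day, beside 19% and 59.1% of all genes. In lean calli 0 of 11 were called from d3 to d5, d5 to d7 or d7 to d10 (all genes 0.449%, 0% and 2.73%). From DIO d3 to d5, 2 rose, beside 1.68% of all genes called. They were the fusion protein Mymk (3.06 ± 0.63 (SE), edgeR adjusted p = 0.0164) and the adhesion molecule Ncam1. From DIO d7 to d10, 5 fell and 1 rose, beside 13% of all genes called. Those that fell were Mymk (-2.69 ± 0.68 (SE)), its partner in fusion Mymx (-3.87 ± 0.88 (SE)), the differentiation factors Myog (-3.52 ± 0.80 (SE)) and Myod1 (-2.38 ± 0.64 (SE)), and the satellite cell factor Pax7 (-2.99 ± 0.67 (SE)). M-cadherin, Cdh15, rose (1.42 ± 0.20 (SE)).

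Of 10 partners of slow fibres, 6 were called over any lean day and 9 over any DIO day, against the same backgrounds. Medians of slow troponin I, Tnni1, were 15.8, 186 and 33.9 CPM on lean d3, d5 and d7, and those of calsequestrin 2, Casq2, were 8.71, 139 and 20.8 CPM in DIO mice. Casq2 rose from DIO d3 to d5 (3.53 ± 0.68 (SE), edgeR adjusted p = 0.0108), and both genes are also expressed in developing fibres. The slow light chains Myl2 and Myl3 instead had medians of 24.4, 1.18 and 21.7 CPM and 9.37, 1.97 and 21 CPM on DIO d3, d5 and d10, and both were named for their likeness to Myh7.

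Among the partners of adult fast fibres, 0 of 10 were called over any lean day by edgeR and 1, the calcium buffer parvalbumin (Pvalb), over any DIO day. Of the 15 adult muscle markers 0 and 2 (Mb and Cox6a2) were called, and of 10 genes for thick filament assembly and myosin folding 1 (Hsp90aa1) and 3 (Myom3, Unc45b and Mybpc1). All of these shares were under those of all genes, 19% over any lean day and 59.1% over any DIO day. Of the 4 other sarcomeric myosins 3 were tested, with 1 (Myh6) and 2 (Myh13 and Myh7b) called, and of the 4 nonmuscle and smooth myosins 1 (Myh10) and 3 (Myh10, Myh14 and Myh9). Against the same 19% and 59.1%, the smooth muscle and pericyte list had 1 and 5 of 6 called, osteoblast genes 3 and 5 of 6, leukocyte genes 2 and 5 of 6, and cardiac genes 1 (Myh6) and 0 of the 2 tested.

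Cartilage genes, of another cell type, moved in the same DIO steps as Myh3 and Myh8. Of 7 chondrocyte markers 6 were called over any lean day and 7 over any DIO day (all genes 19% and 59.1%). From DIO d3 to d5, 6 rose (median log2 difference 4.29), beside 1.68% of all genes called. From DIO d7 to d10, 6 fell (median -3.26), beside 13% of all genes called. All 7 were detected in every library. Their summed level was 927 to 1500.1 CPM on lean d3, 2427 to 10417 on d5, 5235 to 15213 on d7 and 62739, 13706 and 12022 in mice 1 to 3 of d10. The high d10 value is that of the lean library poorest in muscle markers. In DIO calli it was 793 to 1809 CPM on d3, 8617 to 16129 on d5, 16054 to 38163 on d7, 3955 to 7586 on d10, 1699.8 to 3244 on d14 and 1139 to 2178 on d21. The part of cartilage content in the myosin results was not tested.

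The genes most like each member were sought by Pearson's r of log2 CPM over the 30 libraries, among 14734 genes and with the members left out. The libraries share groups and muscle content, so r is a description and has no test. For Myh3 they were Mymk at 0.98, Tnnt2 at 0.98, Gm28653 at 0.97, Myog at 0.96 and Chrng at 0.96. Mymk and Myog are genes of fusing and differentiating myoblasts, and Chrng is the fetal receptor subunit. For Myh8 they were Igf2 at 0.94, Wnt11 at 0.92, Itm2a at 0.92, Mfap4 at 0.91 and H19 at 0.90, a set with the fetal growth factor Igf2 and the noncoding RNA H19 beside it in the genome. The 2 sets share no gene, and Myh3 and Myh8 had an r of 0.91 with each other.

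For Myh4 the most alike genes were Pygm at 0.98, Phkg1 at 0.98, Tcap at 0.97, Ckm at 0.97 and Myoz1 at 0.96, of which Pygm is muscle glycogen phosphorylase and Ckm muscle creatine kinase. For Myh1 they were Tmod4 at 0.97, Mybpc1 at 0.97, Hfe2 at 0.97, Cacna1s at 0.96 and Art1 at 0.96, and those for Myh2 included Nrap at 0.94, Art1 at 0.93, Smtnl1 at 0.93 and Hspb6 at 0.93. Myh1 and Myh2 had an r of 0.93, and share 24.6% (Myh1) and 25.2% (Myh2) of read-length windows with other members. For Myh7 they were Myl2 at 0.80, Myl3 at 0.71, D830039M14Rik at 0.62, St8sia5 at 0.58 and Ppp1r3a at 0.56, led by both slow light chains. The r of Myh7 with Myh3 was 0.15.

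Counting was not stated to use strand, and antisense genes overlap 3 members in exons. The antisense RNA Myhas covers 515 exon bases of Myh1 and had 2 to 212 reads per library. The gene 9430073C21Rik covers 237 of Myh2 with at most 12 reads, and Mhrt 484 of Myh7 with at most 2. The last gene of the row, Myh13, had group means of 0.218 to 2.5 CPM. Myh8 and Myh13 share 268 windows, yet Myh13 held at most 72 reads in any library.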

How the data were processed

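RNA was measured by stranded mRNA sequencing in 30 calli, 1 per mouse and 3 mice per diet and day. Per the labels and the methods, the authors trimmed reads with BBDuk, aligned them to GRCm38 with HISAT2 2.1.0 and counted them per gene with HTSeq, and they deposited raw counts. The annotation, the strand setting and the handling of reads with several matches are not given in the sources used here. The table holds 43629 genes, of which 27445 have at least 1 count, and 42462 identifiers matched GENCODE M21 symbols. Totals ran from 13247122 to 26365620 counts per library. No pair of libraries within a group agreed within sampling noise.

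Counts were tested with edgeR 4.0.16 (TMM factors, filterByExpr by group, quasi-likelihood test, two-sided, Benjamini-Hochberg adjustment over all genes tested, threshold 0.05) in R 4.3.3. Neighbouring days were compared within the 12 lean or 18 DIO libraries, diets within the 6 libraries of a day, and the change of the diet difference in the 24 libraries of d3 to d10. The procedure was tested on simulated data with 200 changed genes and the same spread set for every gene. That setting does not cover genes whose spread between mice is wider. CPM for display came from 1 set of TMM factors over 30 libraries. Tables and correlations were made in Python 3.11.15 with pandas 2.3.3, numpy 2.4.6 and scipy 1.17.1. Alternatives were DESeq2 1.42.0, its size factors, no filter on low counts, all 30 libraries in 1 fit, a replicate block and each library left out. Shares and ratios of members were also recomputed with other transcript lengths, and for the ratio these were chosen after seeing the data.

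The members and gene lists were chosen with earlier results of these data known. Named beyond the 6 members are, from each list, at most 4 genes by smallest adjusted p over any DIO day and at most 3 by smallest adjusted p in another comparison, the 5 genes most alike to each member (1 of them is not reported here), genes that overlap a member or share sequence with it, and defining markers. Counts of 5 or fewer called genes are also named where their names help, and those were chosen after their values were seen. Replicate numbers in the labels are not stated to pair the samples, and the main tests did not pair them. Every same-numbered correlation of deviations exceeded 0.1 in 1 of 18 pairs of groups, lean d5 and d7. With 3 mice per group, these correlations cannot show whether a number marks a shared litter, day or batch.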

Additional observations from a re-analysis of the deposited data

How the results depend on the processing

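Among the 6 members, the number called moved as follows, and the cause was not tested. From lean d3 to d5 it was 1, and it was 2 with all 30 libraries in 1 fit, with DESeq2 and without the filter, and 0 to 2 with a library left out. Without the filter it was 3 instead of 2 from DIO d3 to d5, 1 instead of 0 from DIO d5 to d7, 5 instead of 4 from DIO d14 to d21, and 6 instead of 5 over any DIO day. With all 30 libraries in 1 fit it was 2 instead of 3 from DIO d7 to d10, 0 instead of 1 from DIO d10 to d14, 0 instead of 4 from DIO d14 to d21, and 3 instead of 5 over any DIO day. With a library left out it was 1 to 2 from DIO d3 to d5, 2 to 3 from DIO d7 to d10, 0 to 1 from DIO d10 to d14, 0 to 4 from DIO d14 to d21, and 3 to 6 over any DIO day. Between diets it was 0, and DESeq2 called 1 on d3, 1 on d7 and 1 on d10, while without the filter it was 1 on d7 and 1 on d10. With a library left out it was 0 to 1 on d7 and 0 to 1 for the change of the diet difference. The log2 diet difference on d5 ran from -0.37 to 0.91 for Myh3 and from -0.26 to 1.08 for Myh8 with a library left out, so its sign was not stable.

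With the replicate block, the number called was 2 instead of 1 from lean d3 to d5 (Myh3 joined), 1 instead of 0 from lean d7 to d10 (Myh3), 0 instead of 1 from DIO d10 to d14 (Myh7), and 4 instead of 5 over any DIO day, where Myh2 was lost. What samples of the same number share is not stated in the labels. From lean d5 to d7 the block changed no call of a member.

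The median developmental share on lean d7 was 4.04% by read counts without length against 2.91% per kb. The median Myh8 to Myh3 ratio on lean d7 was 1.39 per kb of the longest transcript and 0.731 per kb of merged exon. By Spearman's rho, 2 of the 5 most alike genes were shared for Myh1, 3 for Myh4 and 3 for Myh7. With 3 mice per group and a wide spread on d5, differences between diets of the size seen there could not be resolved.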
